A study of Homo sapiens with 12 samples.

Results

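The metallothioneins, the zinc-sensing transcription factor that drives them and the zinc exporter of the plasma membrane were followed in 2 prostate cancer cell lines treated with pentamidine. The set was chosen by gene name and held 8 genes of the 32077 in the count table, namely MT2A, MT1E, MT1F, MT1G, MT1M and MT1X, the factor MTF1 and the exporter SLC30A1. Of these, 7 had counts and 6 passed the filter on low counts in each line. MT1M was not analysed here.

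Pentamidine is an aromatic diamidine used as an antiprotozoal drug. PC3 and DU145, wild-type cell lines derived from metastatic prostate cancers, were grown in DMEM with serum and received 2.5 μmol/L pentamidine or vehicle (sterile distilled water) for 48 hours. RNA was sequenced from 3 samples of each of the 4 groups, 12 libraries in all. Each group is 1 line at 1 dose and 1 time. The study speaks of independent experiments in general, but the labels do not say whether the sequenced samples of a group came from separate cultures, so p-values measure the spread between these samples, which may be technical.

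Total counts ran from 13514195 to 15131436 per library. The epithelial keratins KRT8 and KRT18 were present in both lines, whereas the epithelial markers EPCAM and CDH1, which carcinoma lines of this kind are usually described as expressing, lay between 0 and 10 counts in every library. The groups are called by their labels throughout. The summed level of the leukocyte markers was at most 0.522 CPM (normalized counts per 1000000 counts of a library), that of the endothelial markers at most 1.15 and that of the fibroblast markers at most 3.13. The share of counts on mitochondria-encoded genes was lower with pentamidine, at 2.71% against 3.85% in PC3 and 2.01% against 4.54% in DU145. Its part in the values below was not tested beyond a scaling without these genes, under which no call of a member changed.

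Metallothioneins are small cysteine-rich proteins that bind zinc, copper and cadmium and buffer free zinc in the cell. When zinc rises, the zinc-finger factor MTF1 binds metal response elements upstream of the metallothionein genes and of SLC30A1, whose product (ZnT1) carries zinc out of the cytosol. Metallothionein transcription also responds to glucocorticoids and to oxidative stress, and prostate epithelium is known for its high zinc content, which malignant cells largely lose.

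The metallothionein genes measured lie in a cluster on the long arm of chromosome 16. In GRCh38, the positions in the count table are chr16:56608199-56609497 for MT2A, chr16:56625475-56627112 for MT1E, chr16:56657694-56660698 for MT1F and chr16:56682424-56684196 for MT1X, all on the plus strand, and chr16:56666731-56668065 for MT1G on the minus strand. MTF1 lies on the minus strand at chr1:37809567-37859620 and SLC30A1 on the minus strand at chr1:211571568-211578742. All 7 are annotated as protein-coding, and the counts cover whole genes. Sequence shared between the metallothionein transcripts bears on how their reads could be split. No stretch of 150 bases, the read length, was shared exactly between MT2A, MT1E, MT1F or MT1G and any other gene, whereas 8.58% of such stretches in MT1X were shared with AC026461.1, which overlaps it on the same strand. Of stretches of 50 bases, 3.02% in MT2A, 7.1% in MT1E, 1.22% in MT1F and 18.3% in MT1X were shared with other genes. These shares were highest for MT1X, whose counts are the least certain by this measure. They cover exact identity only and do not bound how many reads of these genes could have been split or dropped.

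The upstream sequences of the members are shown because metal response elements are the sites that MTF1 binds. The RefSeq table (GRCh38.p14) held the upstream sequence of 4 of the 8 members, MT2A, MT1X, MTF1 and SLC30A1. The core motifs TGCACNC and TGCGCNC were searched on both strands in the 250 bases before each RefSeq start. In the sequences below, written 5′ to 3′ on the strand of the gene, capitals mark the matches.
MT1X: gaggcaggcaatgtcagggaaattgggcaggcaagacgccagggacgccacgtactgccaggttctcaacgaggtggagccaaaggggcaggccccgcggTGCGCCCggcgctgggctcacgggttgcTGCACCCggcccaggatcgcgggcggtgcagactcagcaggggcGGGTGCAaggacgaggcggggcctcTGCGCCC
MT2A: TGCGCCCggcccagTGCGCGC
SLC30A1: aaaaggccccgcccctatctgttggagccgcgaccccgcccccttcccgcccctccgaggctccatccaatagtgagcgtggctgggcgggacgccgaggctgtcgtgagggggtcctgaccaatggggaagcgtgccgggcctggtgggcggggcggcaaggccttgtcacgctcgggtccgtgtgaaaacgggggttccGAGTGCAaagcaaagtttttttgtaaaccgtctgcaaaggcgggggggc

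The MT1X stretch covers chr16:56682220-56682423 on the plus strand. It holds all 4 matches of its window, at 150, 122, 78 and 53 bases before the RefSeq start, the third of them on the other strand. The MT2A stretch, chr16:56608431-56608451 on the plus strand, holds 2 of 7 matches. The other 5 MT2A matches start 246, 168, 88, 54 and 8 bases before the start. GENCODE places the start of an MT2A transcript farther upstream, so that these bases are also annotated as 5′ UTR. The SLC30A1 stretch covers chr1:211579162-211579411 on the minus strand and holds 1 match, 49 bases before the RefSeq start and on the other strand. That start lies upstream of the SLC30A1 start in the count table, chr1:211578742. The bases directly before the latter were not searched. The window of MTF1 held 0 matches. Of 35116 upstream windows in the table, 24.8% held at least 1 match, 0.37% held at least 4 and 0.12% held at least 5. A match is a match of letters and was not tested as a binding site.

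With vehicle, MT2A and MT1E held almost all metallothionein counts in both lines. Levels in CPM per kilobase of exon allow only a rough comparison between genes. The length used merges all annotated exons and spans the whole gene for MT2A (1299 bases) and MT1X (1773 bases). On this scale MT2A had a level of 1216 ± 104 in PC3 and 3309 ± 177 in DU145 (SD, n = 3), and MT1E of 254 ± 50.7 and 468 ± 17.0. On the same scale SLC30A1 had a level of 9.46 ± 1.23 in PC3 and 10.05 ± 0.434 in DU145, and MTF1 of 7.97 ± 0.578 and 6.83 ± 0.180. MT1X and MT1F lay lower on this scale, MT1X at 0.744 ± 0.205 and 1.79 ± 0.132 and MT1F at 0.536 ± 0.198 and 0.354 ± 0.111. How far below MTF1 and SLC30A1 they lay depends on the length used. MT1G had 1 count over all 12 libraries, in a DU145 vehicle sample, and was not tested. A count of 0 allows up to 3 counts, or 0.198 to 0.222 CPM, so its change was not detectable at this depth. In PC3 the samples of SLC30A1 and MTF1 overlapped on this scale, as did those of MT1X and MT1F, so the order within each of these pairs was not resolved there.

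The 2 lines differed in these genes before any treatment. In the vehicle groups, the quasi-likelihood test of edgeR, adjusted by Benjamini-Hochberg, placed MT2A lower in PC3 than in DU145 by 1.44 on the log2 scale (SE 0.048, adjusted p = 1.14e-19), MT1E by 0.88 (SE 0.078, adjusted p = 1.37e-10) and MT1X by 1.27 (SE 0.28, adjusted p = 2.92e-04). MTF1 was higher in PC3 by 0.22 (SE 0.063, edgeR adjusted p = 0.00314). SLC30A1 and MT1F did not pass the test, with differences of -0.086 (95% interval -0.23 to 0.058) and 0.62 (-0.14 to 1.38). Thus 4 of 6 members passed, against 66.4% of the 15226 genes tested, a share near that of the members.

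Pentamidine changed MT2A in opposite directions in the 2 lines. MT2A is the most widely expressed human metallothionein. In DU145 it had 4388, 4470 and 4037 CPM with vehicle and 2755, 2580 and 2633 CPM with pentamidine. Every treated DU145 sample lay below every vehicle sample. MT2A fell by 0.69 on the log2 scale (SE 0.030, edgeR adjusted p = 6.73e-26), to 0.62 of the vehicle level. In PC3 it had 1445, 1578 and 1714 CPM with vehicle and 1826, 1710 and 1760 CPM with pentamidine. The PC3 groups overlapped, the highest vehicle sample lying above the lowest treated one. MT2A rose in PC3 by 0.16 (SE 0.058, edgeR adjusted p = 0.0284), a call that was lost without any of 4 libraries. Without vehicle replicate 1 the change was 0.099 (adjusted p = 0.113), without vehicle replicate 2 it was 0.16 (0.0635), without pentamidine replicate 1 it was 0.14 (0.134), and without pentamidine replicate 3 it was 0.17 (0.0737), all by edgeR. The direction in PC3 was the same in all 14 alternatives run. The effects in the 2 lines differed by 0.86 (SE 0.067, edgeR adjusted p = 2.42e-10 for the interaction of line and treatment). The epithelial keratins differed between the groups too, KRT8 having 2710 ± 89.4 CPM with vehicle and 1831 ± 15.3 CPM with pentamidine in DU145 and 20.2 ± 1.51 and 17.3 ± 1.5 CPM in PC3 (SD, n = 3). KRT18 had 915 ± 23.7 and 698 ± 16.3 CPM in DU145 and 155 ± 14.2 and 197 ± 15.4 CPM in PC3. The summed level of the 4 epithelial markers ran from 3530 to 3690 CPM with vehicle and from 2500 to 2560 CPM with pentamidine in DU145, and from 165 to 193 and from 196 to 224 CPM in PC3. Their part in the change of MT2A was not tested. In bulk RNA, fewer cells with a transcript and less transcript per cell cannot be told apart.

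**Figure D1:**
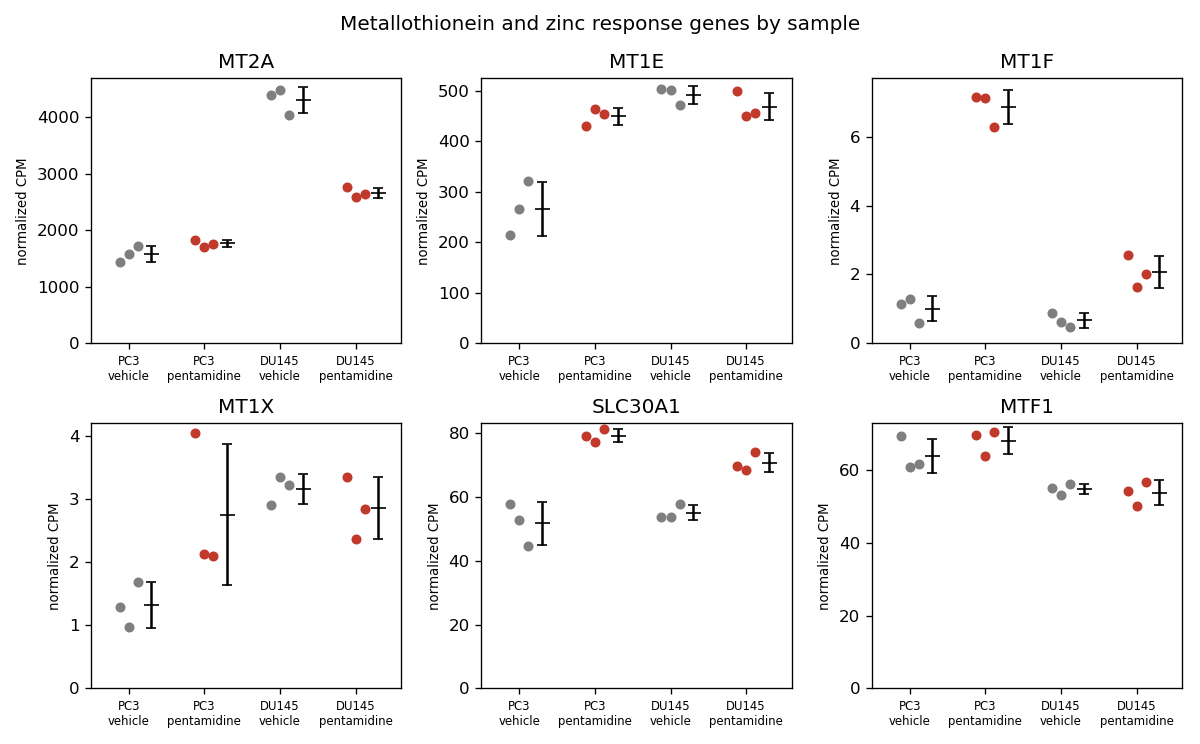
Normalized CPM (vertical axes, starting at 0) of the 6 tested members in each of the 12 libraries. Points are samples, grey for vehicle and red for pentamidine, and bars give the mean and SD (n = 3). The MT2A mean went from 4298 to 2656 CPM in DU145 and from 1579 to 1765 CPM in PC3, whereas the MT1E mean went from 267 to 450 CPM in PC3 and from 492 to 469 CPM in DU145.

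MT1E, the more abundant of the MT1 genes here, rose in PC3 and did not pass the test in DU145. In PC3 it had 214, 265 and 321 CPM with vehicle and 431, 464 and 454 CPM with pentamidine. The PC3 groups did not overlap. MT1E rose in PC3 by 0.76 on the log2 scale (SE 0.096, edgeR adjusted p = 6.98e-06), or 1.69-fold. DU145 samples had 503, 501 and 471 CPM with vehicle and 499, 451 and 456 CPM with pentamidine, and these groups overlapped. The difference there was -0.065 (SE 0.034, 95% interval -0.13 to 0.0028, edgeR adjusted p = 0.135). Without pentamidine replicate 1 the DU145 difference passed the test, at -0.12 (edgeR adjusted p = 0.0066). The effects in the 2 lines differed by 0.82 (SE 0.11, edgeR adjusted p = 2.11e-06).

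MT1F, a low-abundance member of the MT1 family, had the largest fold change of the 6 members in each line. MT1F had 17, 20 and 8 counts with vehicle in PC3 and 106, 100 and 93 with pentamidine. The DU145 samples had 12, 9 and 7 counts with vehicle and 36, 24 and 29 with pentamidine. The groups did not overlap in either line, although the DU145 counts were small. In the test of each line, MT1F passed the filter on low counts through its pentamidine samples. Vehicle counts went down to 8 in PC3 and 7 in DU145, against a minimum count of 10. Its entry into these tests was thus not independent of its rise. MT1F rose by 2.73 in PC3 (SE 0.24, edgeR adjusted p = 7.04e-08), or 6.65-fold, and by 1.63 in DU145 (SE 0.35, edgeR adjusted p = 1.84e-04), or 3.10-fold. Its level with pentamidine was 6.85 ± 0.494 CPM in PC3 and 2.07 ± 0.475 CPM in DU145 (SD, n = 3). The difference between the 2 effects, 1.10 (95% interval 0.18 to 2.02), had an edgeR adjusted p of 0.0841.

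MT1X, another MT1 gene, was counted at 15 to 60 reads per library. The PC3 samples had 19, 15 and 23 counts with vehicle and 60, 30 and 31 with pentamidine. The groups did not overlap, but pentamidine replicate 1 stood well above the other 2 treated samples. MT1X rose in PC3 by 1.08 (SE 0.32, edgeR adjusted p = 0.0116), or 2.12-fold. The call rested on single libraries, since without pentamidine replicate 1 the change was 0.69 (edgeR adjusted p = 0.123) and without vehicle replicate 2 it was 0.90 (edgeR adjusted p = 0.0646). Counts in DU145 were 39, 48 and 47 with vehicle and 47, 35 and 41 with pentamidine. These groups overlapped, and the difference was -0.15 (SE 0.22, 95% interval -0.59 to 0.30, edgeR adjusted p = 0.655). The effects in the 2 lines differed by 1.23 (SE 0.38, edgeR adjusted p = 0.0219). That difference did not pass without PC3 pentamidine replicate 1 (edgeR adjusted p = 0.125), PC3 vehicle replicate 2 (0.0697) or DU145 pentamidine replicate 2 (0.0581).

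SLC30A1, the zinc exporter, rose in both lines. PC3 samples had 57.9, 52.8 and 44.6 CPM with vehicle and 79.2, 77.1 and 81.3 CPM with pentamidine. In DU145 it had 53.7, 53.6 and 57.8 CPM with vehicle and 69.8, 68.6 and 74.0 CPM with pentamidine. The groups did not overlap in either line, and the vehicle samples of the 2 lines covered a like range. The rise was 0.62 in PC3 (SE 0.076, edgeR adjusted p = 5.05e-06), or 1.53-fold, and 0.37 in DU145 (SE 0.053, edgeR adjusted p = 1.20e-07), or 1.29-fold. The difference of 0.25 between these effects (95% interval 0.050 to 0.44) had an edgeR adjusted p of 0.0700. It passed without PC3 vehicle replicate 1, at 0.34 (edgeR adjusted p = 0.00294), and with no filter on low counts, at 0.26 (edgeR adjusted p = 0.0370).

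MTF1, the factor that reads zinc, did not pass the test in either line. In PC3 it had 69.2, 60.8 and 61.7 CPM with vehicle and 69.8, 63.9 and 70.6 CPM with pentamidine. In DU145 it had 55.1, 53.3 and 56.1 CPM with vehicle and 54.3, 50.1 and 56.8 CPM with pentamidine. The groups overlapped in both lines. The difference was 0.097 in PC3 (95% interval -0.043 to 0.24, edgeR adjusted p = 0.257) and -0.025 in DU145 (95% interval -0.14 to 0.088, edgeR adjusted p = 0.779). The interaction of line and treatment was 0.12 (95% interval -0.062 to 0.30, edgeR adjusted p = 0.384). These intervals bound the change in its transcript only.

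**Figure D2:**
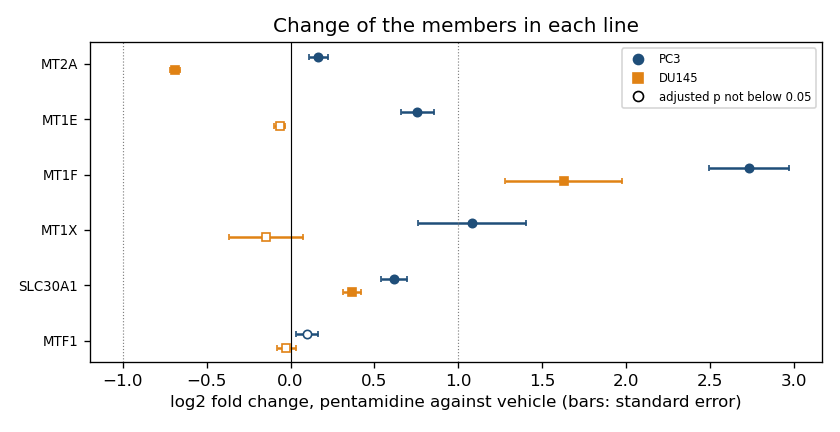
Log2 fold change with pentamidine (horizontal axis) of the 6 tested members in PC3 (blue circles) and DU145 (orange squares), with standard errors as bars. Filled symbols have an adjusted p below 0.05 and dotted lines mark a change of 1. MT1F and SLC30A1 lie to the right of 0 in both lines, whereas MT2A lies at 0.16 in PC3 and -0.69 in DU145.

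Over the members, 5 of 6 rose in PC3 (adjusted p below 0.05 by edgeR), against 21.7% of the 13861 genes tested there, and 0 fell, against 21.7%. The median log2 fold change of the 6 was 0.69, against 0.0046 over all tested genes. Among them, MT1F and MT1X also had an absolute log2 fold change above 1, a rise that 3.44% of all tested genes had. In DU145, 2 of 6 rose, against 17.2% of 14313 genes, and 1 fell, against 16.8%. The DU145 median was -0.045, against 0.0085 over all tested genes. MT1F alone was also past the fold limit, against 1.37% of all tested genes. The groups did not overlap for 4 of 6 members in PC3, against 52.1% of genes, and for 3 of 6 in DU145, against 44.0%. The interaction test was passed by 3 of 6 members, MT2A, MT1E and MT1X, against 20.4% of the 15226 genes tested. In all 3 the effect was higher in PC3. For groups that do not overlap, the shares among the members were near those among all genes. The counts of members that rose in each line include MT1F, which passed the filter on low counts there through its pentamidine samples.

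The summed metallothionein transcripts were higher with pentamidine in PC3 and lower in DU145. The sum covers the 5 metallothionein genes of the set with counts and leaves out the pseudogene MT1L, described below, which had 55.9 ± 3.00 CPM in DU145 with vehicle (SD, n = 3). These genes together had 1848 ± 188 CPM with vehicle and 2224 ± 42.6 CPM with pentamidine in PC3 (SD, n = 3), and 4794 ± 247 and 3130 ± 117 CPM in DU145. The sum thus differed by 0.27 on the log2 scale in PC3 and by -0.62 in DU145, and the groups did not overlap in either line. With MT2A left out of the sum, the levels were 269 ± 53.3 and 459 ± 15.6 CPM in PC3 and 496 ± 17.9 and 474 ± 27.2 CPM in DU145. The 2 lines, which differed in summed metallothionein with vehicle, lay closer together with pentamidine.

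MT1E gained on MT2A by about the same factor in each line, although different genes moved. The larger change was the rise of MT1E in PC3, by 0.76, and the fall of MT2A in DU145, by 0.69. This ratio was chosen after the values were seen. It compares the counts of both genes in the same library and needs no scaling between libraries. The log2 ratio of MT1E to MT2A counts was -2.75, -2.57 and -2.42 in the PC3 vehicle samples and -2.08, -1.88 and -1.96 with pentamidine. In DU145 it was -3.12, -3.16 and -3.10 with vehicle and -2.46, -2.52 and -2.53 with pentamidine. The groups did not overlap in either line. The shift was 0.61 in PC3 (SE 0.11), or 1.52-fold, and 0.62 in DU145 (SE 0.026), or 1.54-fold. The exact two-sided permutation test gave p = 0.1 in each line, the smallest that 3 samples against 3 can give. The shifts differed by -0.015 (SE 0.12). MT1E accordingly made up 14.3% ± 1.43 of the counts of these 5 genes with vehicle and 20.2% ± 1.13 with pentamidine in PC3, and 10.3% ± 0.184 and 15.0% ± 0.297 in DU145 (SD, n = 3).

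**Figure D3:**
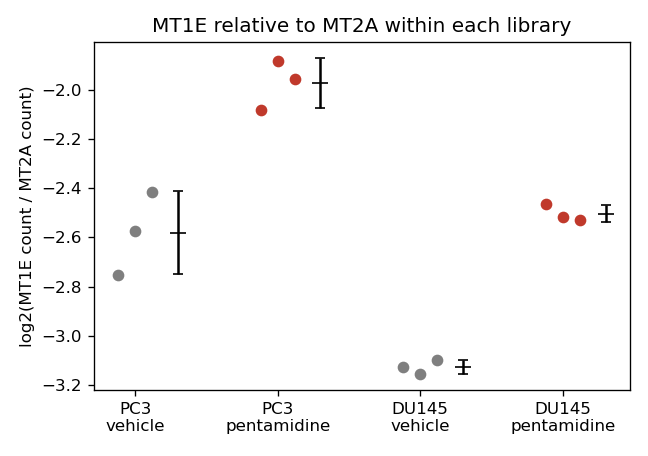
Log2 ratio of MT1E to MT2A counts within each library (vertical axis, limited to the range of the data) for the 4 groups. Points are samples, and bars give the mean and SD (n = 3). The mean went from -2.58 to -1.97 in PC3 and from -3.13 to -2.50 in DU145.

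Of the 7 other metallothionein genes listed, MT1L, a transcribed pseudogene at chr16:56617476-56618818, could be tested. It was counted at 778, 748 and 829 reads in DU145 with vehicle and at 476, 550 and 560 with pentamidine, with no overlap. In PC3 it had 2, 1 and 0 counts with vehicle and 3, 1 and 3 with pentamidine. MT1L fell in DU145 by 0.60 (SE 0.061, edgeR adjusted p = 1.65e-11), beside the fall of 0.69 of MT2A. The vehicle groups held 2355 counts in DU145 and 3 in PC3, a ratio of 814 after scaling to the normalized library sizes (exact 95% interval 278 to 3948, counting error only). MT1L shared no stretch of 150 bases with another gene, and 4.42% of its stretches of 50 bases. MT1B and MT4 had 1 count each, and MT1A, MT1H, MT1HL1 and MT3 were not analysed here.

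The other transporters of the zinc exporter family, which move zinc out of the cytosol or into vesicles, gave few calls. Of 5 tested in PC3, 0 rose and 1 fell, namely SLC30A6 by 0.18 (SE 0.071, edgeR adjusted p = 0.0477), and of 6 tested in DU145, 0 passed in either direction, counts too small to set apart from the 21.7% of all genes that rose in PC3 and the 17.2% in DU145. The median log2 fold changes were -0.105 and -0.0133. Of the SLC39 importers, which bring zinc into the cytosol, 2 of 11 tested rose and 4 fell in PC3, and 4 of 11 rose and 4 fell in DU145, against 21.7% rising and 21.7% falling over all genes in PC3 and 17.2% and 16.8% in DU145.

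SLC39A10, a zinc importer of the plasma membrane, was the importer with the largest change. SLC39A10 had 51.3, 51.0 and 46.8 CPM with vehicle in PC3 and 21.1, 22.6 and 24.4 CPM with pentamidine. The DU145 samples had 37.2, 36.7 and 34.3 CPM with vehicle and 23.2, 24.0 and 23.8 CPM with pentamidine. The groups did not overlap in either line, and the treated samples of both lines lay between 21.1 and 24.4 CPM. SLC39A10 fell by 1.13 in PC3 (SE 0.077, edgeR adjusted p = 3.38e-09) and by 0.60 in DU145 (SE 0.072, edgeR adjusted p = 1.36e-09), and the effects differed by -0.53 (SE 0.10, edgeR adjusted p = 3.69e-04). SLC39A14, an importer of zinc, iron and manganese named after its values were seen, rose by 0.77 in PC3 (SE 0.053, edgeR adjusted p = 3.65e-09) and by 0.18 in DU145 (SE 0.035, edgeR adjusted p = 6.35e-05).

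**Figure D4:**
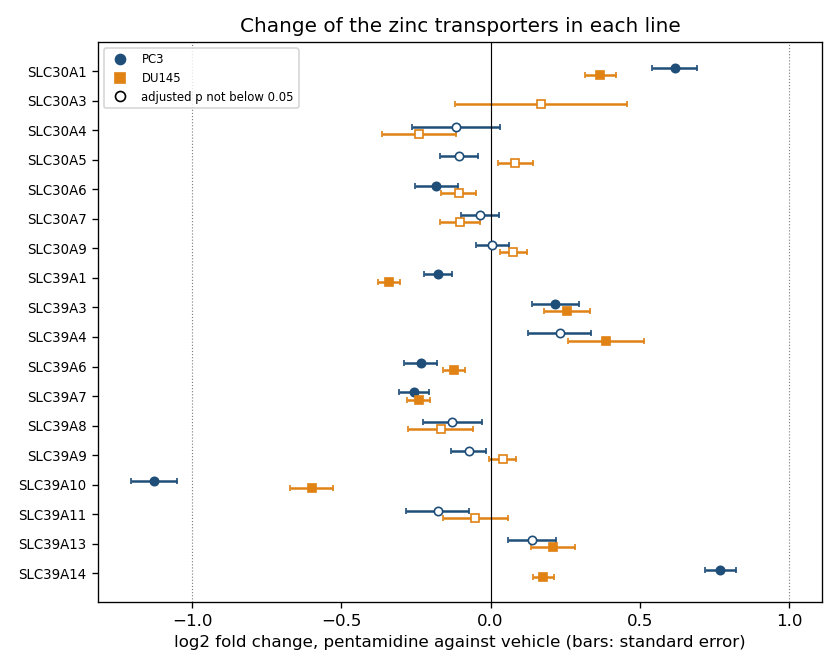
Log2 fold change with pentamidine (horizontal axis) of SLC30A1, the other SLC30 exporters and the SLC39 importers tested in PC3 (blue circles) and DU145 (orange squares), with standard errors as bars. Filled symbols have an adjusted p below 0.05, and dotted lines mark a change of 1. SLC30A1 lies at 0.62 and 0.37 and SLC39A10 at -1.13 and -0.60, and the other exporters lie between -0.24 and 0.17.

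Other lists of genes tied to metals or to known inducers of metallothioneins moved in both directions. Of 10 copper-handling genes tested, 1 rose and 4 fell in PC3, and 1 rose and 2 fell in DU145. The largest changes past the test were that of ATP7B, a copper exporter, by -0.53 in PC3 (SE 0.21, edgeR adjusted p = 0.0491) and by -0.28 in DU145 (SE 0.11, edgeR adjusted p = 0.0444). ATP7B had only 33 to 63 counts per library in PC3, and its groups overlapped in DU145. Of 11 other genes that heavy metals induce, 4 rose and 4 fell in each line. Over all tested genes, 21.7% rose and 21.7% fell in PC3 and 17.2% and 16.8% in DU145. The cystine transporter SLC7A11 rose by 1.86 in PC3 (SE 0.067, edgeR adjusted p = 5.67e-13) and by 2.11 in DU145 (SE 0.060, edgeR adjusted p = 1.86e-34). HMOX1, the haem-degrading enzyme, rose by 1.42 and 0.37, and TXNRD1, a thioredoxin reductase, by 1.14 and 0.64. HSPA1A and HSPA1B, which encode heat shock protein 70, fell by 1.21 and 1.09 in PC3 and by 0.48 and 0.37 in DU145. These 2 genes are near-identical, so how their reads were split is uncertain. The median of the list was -0.106 in PC3 and -0.112 in DU145.

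Of the glucocorticoid receptor and its targets, 5 of 8 tested rose and 1 fell in PC3, and 2 of 9 rose and 3 fell in DU145. Of all genes tested, 21.7% rose and 21.7% fell in PC3 and 17.2% rose and 16.8% fell in DU145, so the DU145 count of rises was near that share. TSC22D3 (GILZ), a glucocorticoid-induced leucine zipper protein, had 6.85, 7.97 and 7.52 CPM with vehicle and 84.5, 96.1 and 79.1 CPM with pentamidine in PC3. In DU145 it had 4.18, 5.05 and 3.37 CPM and then 13.2, 16.4 and 13.1 CPM. Neither line's groups overlapped. TSC22D3 rose by 3.54 in PC3 (SE 0.098, edgeR adjusted p = 1.30e-14) and by 1.77 in DU145 (SE 0.14, edgeR adjusted p = 5.19e-15). ERRFI1, a feedback inhibitor of the EGF receptor, rose by 1.39 in PC3 and by 0.19 in DU145. The genes that fell were named after their values were seen. FKBP5 fell by 0.59 in PC3 (SE 0.073, edgeR adjusted p = 4.76e-06) and by 0.18 in DU145 (SE 0.050, edgeR adjusted p = 0.00331). DUSP1 and CEBPD fell in DU145 by 0.44 and 0.70, whereas DUSP1 rose in PC3 by 0.60.

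Over the 12 libraries, after the mean of each line was subtracted, the genes whose log2 CPM was most like that of MT2A were SLC20A1 (Pearson r = 0.989), PLAU (0.976), CXCL3 (0.974), SDC4 (0.972) and HBEGF (0.968), among 12771 genes. Those most like SLC30A1 were ROCK1P1 (0.992), DMTF1 (0.983), N4BP2L2 (0.978), PHF21A (0.977) and LINC00174 (0.975). The points share their libraries, the 4 groups and the choice of the highest values among many genes, so the values are a description.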

How the data were processed

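Messenger RNA, enriched on Oligo(dT) beads, was sequenced as read pairs from 12 libraries. Per the submitters' processing notes the tools were HISAT2 2.1.0 and DESeq 1.18.1 and the build was GRCh38. The counter, its annotation and its use of strand are not given in the sources used here. The authors deposited read counts per gene, without normalization, and these alone were used. A deposited table named for FPKM (columns that each sum to 1000000, not divided by length) and the authors' own fold changes and p-values were not used. From 33639 lines, 44 overflow lines without a gene were dropped, and 1 entry per name and set of counts was kept (32077 genes).

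Samples were grouped by the line and treatment in their labels. Counts were tested with edgeR 4.0.16 in R 4.3.3 (quasi-likelihood test, TMM scaling, filterByExpr at a minimum count of 10, Benjamini-Hochberg adjustment), with the 6 samples of each line for the pentamidine effect and all 12 for the interaction and the vehicle groups. The threshold was an adjusted p of 0.05, and the fold limit, as in the study, an absolute log2 fold change of 1. CPM values use 1 TMM scaling over the 12 libraries. Positions and exon lengths are those of GENCODE 29. The tests were run on simulated counts with the same dispersion for all genes and few genes changed. That setting is simpler than these data and does not give the error rates for low-count genes here. Alternatives were RLE and library-size scaling, scaling without mitochondria-encoded genes, other filters, DESeq2 1.42.0, a replicate block, 1 fit of all samples and leaving out each library.

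The genes named are the 8 members, all other metallothioneins, and the genes of 5 other lists past the fold limit in at least 1 line (at most 6 per list), or, where fewer than 2 were, the one with the largest change past the test. Further genes of these lists are marked as named after their values were seen. The members and lists were chosen with earlier results of these data known. Without molecular identifiers, the exact interval of the MT1L ratio and the floor of 3 counts cover counting error only. The intervals of the edgeR tests also take in the spread between samples.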

Additional observations from a re-analysis of the deposited data

Results flagged for a closer look

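Of the metallothionein genes, 3 responded differently to pentamidine in the 2 lines by the test of the interaction of line and treatment in edgeR, with 3 samples in each of the 4 groups. For MT2A the effect in PC3 minus that in DU145 was 0.8551 on the log2 scale (edgeR adjusted p = 2.42e-10), with all 3 treated DU145 samples below the vehicle samples and overlapping groups in PC3. For MT1E it was 0.8233 (edgeR adjusted p = 2.11e-06), with all 3 treated PC3 samples above the vehicle samples and overlapping groups in DU145. For MT1X it was 1.229 (edgeR adjusted p = 0.0219, range 0.00869 to 0.125 over 19 alternatives), at counts of 15 to 60 per library.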

How the results depend on the processing

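Of 521 values recomputed under an alternative, 499 kept their side of the threshold, or moved by less than the limit set for values without a test. Where either fit passed the test, 0 values turned in direction. Where neither passed, direction was not compared, and the DU145 change of MTF1 ran from -0.071 to 0.025. In PC3, the members at an adjusted p below 0.05 numbered 5, and 3 to 5 when 1 library was left out. Those also past the fold limit numbered 2, 1 to 2 when 1 library was left out and 1 with at least 10 counts required in every sample, since MT1F does not pass that filter. For the same reason, the DU145 count past the fold limit went from 1 to 0. When 1 library was left out, the PC3 change of MT1X ran from 0.69 to 1.29 and that of MT2A from 0.099 to 0.23, and the DU145 change of MT1E ran from -0.12 to -0.044. Without MT2A, the difference in the summed metallothionein counts was 0.77 in PC3 and -0.066 in DU145. In the vehicle groups, MT1F passed without PC3 vehicle replicate 3 (0.88, edgeR adjusted p = 0.0416) and SLC30A1 without PC3 vehicle replicate 1 (-0.17, edgeR adjusted p = 0.0255). With at least 10 counts in every sample, the genes past the fold limit numbered 431 against 658 in PC3, 154 against 290 in DU145, 251 against 399 for the interaction and 1353 against 3141 between the vehicle groups, where fewer genes were tested.

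No pairing by replicate number was visible, since deviations of samples of the same number correlated at -0.0733 to 0.0262. These correlations cannot settle whether samples of the same number were handled together. With the replicate block, the members past the test numbered 5 in PC3, 3 in DU145, 3 for the interaction and 4 between the vehicle groups, as without it, and over all genes 5599 against 6010 passed in PC3 and 4794 against 4860 in DU145. In PC3 the block gave 0.77 for MT1E and 0.17 for MT2A (edgeR adjusted p = 0.0352).

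Depth limits MT1G, which could not be tested, and the precision of MT1F and MT1X. With 3 samples per group, 1 dose, 1 time and 1 culture medium, no dependence on dose or time was measured, and protein and zinc were not measured here.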
